A study of Mus musculus with 3 samples.

Results

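The genes described here are the MHC class II chains, the invariant chain and the genes that load and control them, measured in 4T1 mouse mammary cancer cells kept with or without mesenchymal stem cells (MSCs). The 7 members are Cd74, Ciita, H2-Aa, H2-Ab1, H2-Eb1, H2-DMa and Ctss, of 18193 genes named on the array. They were taken as all probe sets that the Mouse Genome 430 2.0 annotation gives to a member as its only gene symbol, which left 15 probe sets. The set was chosen by the signals of these same 3 arrays, with earlier results in view, so every value below is a description without a test. The arrays hold 3 groups. In co-culture, 4T1 cells were in contact with MSCs for 1 week and were then isolated. In conditioned medium (MSC-CM), they were cultured with medium from MSCs for 1 week. In regular medium they had neither, for a time that the labels do not give. All 4T1 cells were grown in RPMI-1640 with 10% fetal bovine serum. The labels state neither where the MSCs came from nor how the 4T1 cells were isolated. There was 1 array per group, so no value has a replicate error, and precision is limited by having 3 arrays.

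MHC class II molecules are pairs of an alpha and a beta chain that show peptides from endosomes to CD4+ T cells. The invariant chain, encoded by Cd74, escorts newly made pairs and blocks their groove until cathepsin S (Ctss) trims it to a remnant, which H2-DM then exchanges for a peptide. Ciita is the master regulator of the class II chain genes. It acts through RFX, CREB and NF-Y proteins on paired promoter elements called the X and Y boxes. Dendritic cells and B cells express class II constitutively, whereas many other cells do so only after interferon gamma has induced Ciita.

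Promoter sequences are shown for the members the results turn on that have an entry in the RefSeq table (build GRCm38.p6): the class II chain genes H2-Aa and H2-Eb1, whose probe sets stayed dim, H2-DMa, which differed between arrays, and Ctss. Each line gives the 250 bases before an annotated transcript start, 5′ to 3′ in the direction of the gene. Capitals mark matches, on either strand, to the X box inner core GCAAC, the longer X box core (GCAAC, any base, then GATG), the Y box ATTGG, the interferon response core (GAAA, any 2 bases, then GAAA), the interferon gamma-activated element TTCNNNGAA and the cyclic AMP element TGACGTCA. The last of these was added after the sequences were seen.
H2-Aa, chr17:34287824-34288073, minus strand: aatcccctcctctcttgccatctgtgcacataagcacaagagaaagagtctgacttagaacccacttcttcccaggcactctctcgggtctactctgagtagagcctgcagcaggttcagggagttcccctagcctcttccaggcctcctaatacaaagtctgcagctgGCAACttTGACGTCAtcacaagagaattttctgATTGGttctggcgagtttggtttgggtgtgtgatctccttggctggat
H2-Eb1, chr17:34305617-34305866, plus strand: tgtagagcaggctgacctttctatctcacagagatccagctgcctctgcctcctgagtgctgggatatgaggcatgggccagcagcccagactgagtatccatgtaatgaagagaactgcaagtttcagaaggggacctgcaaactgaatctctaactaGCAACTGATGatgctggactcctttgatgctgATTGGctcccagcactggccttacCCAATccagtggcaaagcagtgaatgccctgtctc
H2-DMa, chr17:34122582-34122831, plus strand: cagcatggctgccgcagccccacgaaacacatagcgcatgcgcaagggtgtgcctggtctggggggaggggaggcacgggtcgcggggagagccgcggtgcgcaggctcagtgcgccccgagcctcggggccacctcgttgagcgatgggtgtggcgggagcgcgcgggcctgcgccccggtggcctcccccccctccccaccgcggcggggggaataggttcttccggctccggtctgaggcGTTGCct
Ctss, chr3:95526536-95526785, plus strand: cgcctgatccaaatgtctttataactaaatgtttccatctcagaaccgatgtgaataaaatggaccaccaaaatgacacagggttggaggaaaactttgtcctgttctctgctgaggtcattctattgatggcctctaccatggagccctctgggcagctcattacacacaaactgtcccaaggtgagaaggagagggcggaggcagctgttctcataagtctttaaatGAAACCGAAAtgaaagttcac

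In the H2-Aa and H2-Eb1 promoters an X box inner core was followed by a Y box on the same strand. The starts of the boxes lay 33 bases apart in H2-Aa and 32 bases apart in H2-Eb1. That arrangement, with the starts 25 to 35 bases apart, was found in 161 of 32851 promoter windows of the same length, or 0.490%. The range was set after these sequences were seen. H2-Eb1 also held the longer X box core as GCAACTGATG, which overlaps the inner core and was in 0.161% of windows, and H2-Aa held the cyclic AMP element, in 1.55% of windows. The inner core alone was in 29.9% and the Y box alone in 33.8% of windows, so either by itself is common. The H2-DMa window held a single inner core on the opposite strand, 3 to 7 bases before the start, and no Y box. A second H2-DMa transcript start had a Y box and no inner core in its window. Only these annotated starts of H2-DMa were searched, and which start the cells use was not tested. Whether H2-DMa has the paired boxes before any other start cannot be read from these windows. The Ctss window held the interferon response core, found in 2.98% of windows, 12 to 21 bases before the start. The interferon gamma-activated element, in 7.02% of all windows, was in none of the 5 member windows. These are matches of letters only.

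Signals are MAS5 values on a linear scale. Signals below 42.4, the 40th percentile over the pooled arrays, were replaced by that floor, and values at the floor have no order. A gene was counted as higher or lower on a difference of 2-fold or more between floored signals, provided that the higher signal reached 149.3, the pooled 60th percentile. Where a gene had several probe sets, the one with the greatest mean signal represented it. Of the 7 members, 2 reached 149.3 on at least 1 array, Cd74 and H2-DMa, which is 28.6% against 52.0% of all named genes. Another 4 were at or below the floor on all 3 arrays, or 57.1% against 27.1% of all named genes. H2-Ab1 lay between, above the floor in regular medium alone.

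**Figure D1:**
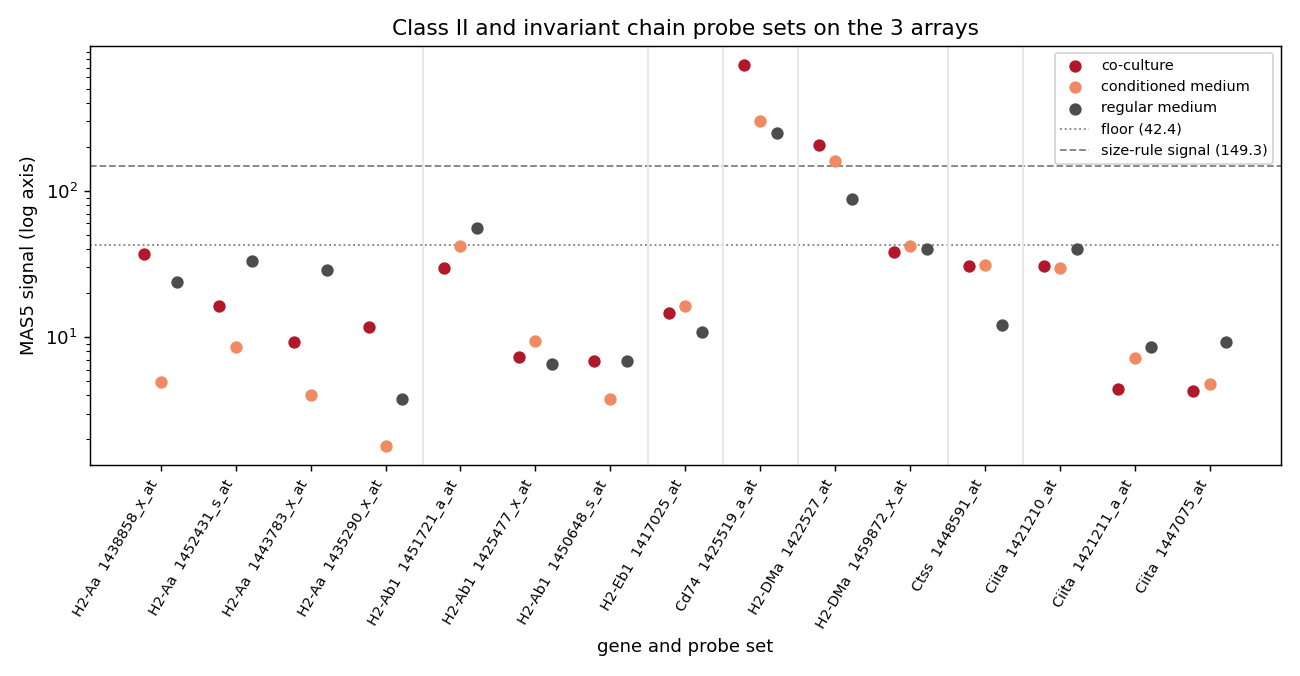
MAS5 signal (log axis) of each of the 15 member probe sets, with 1 point for each array and no error bars, since each group is 1 array. The dotted line is the floor of 42.4 and the dashed line the signal of 149.3 that a counted difference must reach, and points of Cd74 and 1 H2-DMa probe set alone lie above the dashed line.

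None of the classical class II chain genes reached 149.3 on any array. H2-Aa encodes the alpha chain of the I-A molecule, and its 4 probe sets gave 36.9, 16.4, 9.3 and 11.8 in co-culture, 4.9, 8.5, 4.0 and 1.8 in conditioned medium, and 23.7, 33.2, 28.9 and 3.8 in regular medium. All 12 of these signals were under the floor. H2-Ab1 encodes the beta chain of I-A, and the probe set that stood for it gave 29.6 in co-culture, 41.8 in conditioned medium and 55.5 in regular medium. The regular-medium value was the sole one of that gene above the floor, and its log2 difference in co-culture was -0.39 from the floor. Its other probe sets gave 7.3 and 6.9 in co-culture, 9.4 and 3.8 in conditioned medium, and 6.5 and 6.9 in regular medium. H2-Eb1, which encodes the beta chain of the I-E molecule, gave 14.7 in co-culture, 16.4 in conditioned medium and 10.8 in regular medium, again all below the floor. With these 8 probe sets no chain gene had a signal that would allow a difference between the arrays to be read.

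Ciita was likewise dim on every array. Its 3 probe sets gave 30.7, 4.4 and 4.3 in co-culture, 29.8, 7.2 and 4.8 in conditioned medium, and 40, 8.6 and 9.3 in regular medium. None passed the floor, so an increase of the regulator was not detectable with these probe sets, and a low level below the floor cannot be told from none. Ctss, the protease that trims the invariant chain, gave 30.7 in co-culture, 31.1 in conditioned medium and 12.2 in regular medium. These signals also stayed under the floor, and its log2 difference of floored signals was 0 in every comparison.

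Cd74 was the member with the largest difference between co-culture and regular medium. Its 1 probe set gave 728.5 in co-culture, 302.8 in conditioned medium and 251.1 in regular medium. The co-culture signal stood apart, while the other arrays lay close together, and all 3 were above 149.3. It was 2.90-fold higher in co-culture than in regular medium (log2 difference 1.54) and 2.41-fold higher than in conditioned medium (1.27). In conditioned medium it was 1.21-fold that of regular medium (0.27), which did not meet the size rule. Among the genes bright enough to be counted, its difference was the 185th from the top of 9393 in co-culture against regular medium, and the 548th of 9152 in conditioned against regular medium. Probe sets of the same gene, where every signal was past 149.3, scattered around each other by 0.33 on the log2 scale in the first comparison and 0.14 in the second. This scatter holds no variation between cultures. In bulk RNA, more cells with a transcript and more transcript per cell cannot be told apart.

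H2-DMa, the alpha chain of the peptide exchange factor, was higher in co-culture than in regular medium by 1 of its 2 probe sets. The probe set that represented it gave 205.0 in co-culture, 160.3 in conditioned medium and 88.5 in regular medium. The co-culture and conditioned-medium signals lay near each other and the regular-medium signal below both. It was 2.32-fold higher in co-culture than in regular medium (log2 difference 1.21) and met the size rule, at place 355 of 9393. In conditioned medium it was 1.81-fold that of regular medium (0.86), short of the rule, yet the 23rd from the top of 9152. Co-culture was 1.28-fold conditioned medium (0.35). Both comparisons with regular medium share that array, so 1 low signal there enters each. At such dim signals, from the floor to 149.3, probe sets of 1 gene scattered by 0.53 in co-culture and 0.40 in conditioned medium against regular medium. The second H2-DMa probe set gave 38.3 in co-culture, 41.9 in conditioned medium and 40.2 in regular medium, all under the floor, and did not show the difference. With the mean over both probe sets the log2 difference in co-culture was 0.61 and H2-DMa no longer met the rule, as was also so with a higher floor or filter. With arrays scaled to a common median H2-DMa met the rule in conditioned medium too, with a log2 difference of 1.01.

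In co-culture against regular medium 2 of the 7 members were counted as higher and none as lower, beside 5.81% of all 9393 bright genes higher and 2.76% lower. In co-culture against conditioned medium Cd74 alone was higher, beside 5.83% of 9350 genes higher and 2.6% lower. In conditioned against regular medium none of the 7 was counted in either direction, beside 0.109% of 9152 genes higher and 0.306% lower. The choice of the members used these contrasts, so nothing is read from the counts. The medians over all measured genes were 0.07 for co-culture against regular medium, 0.01 for conditioned against regular medium and 0.07 for co-culture against conditioned medium.

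Other genes of the class II pathway differed little. Of 18 listed, 17 had a probe set and 11 were measured (149.3 or more on at least 1 array). By the probe sets that stood for them, none met the size rule in any of the 3 comparisons. Another probe set of Ctsc gave 161.3 in co-culture, 86.7 in conditioned medium and 72.0 in regular medium. It was 2.24-fold higher in co-culture than in regular medium, against 1.35-fold by the brightest Ctsc probe set. Their median log2 difference was 0.26 in co-culture and 0.05 in conditioned medium, each against regular medium. The lysosomal proteases Ctsl, Ctsz and Ctsb had co-culture signals of 18081, 9446 and 7209, with log2 differences from regular medium of -0.12, -0.01 and 0.55. Ctsd, another lysosomal protease, chosen after its values were seen, came nearest to the rule, with 2903 in co-culture, 1565 in conditioned medium and 1509 in regular medium. Its ratio of co-culture to regular medium was 1.92, and it passed 2-fold when arrays were scaled to a common median. H2-DMb2, a beta chain partner of H2-DMa and also chosen after its values were seen, gave 57.3 in co-culture, 47.9 in conditioned medium and 75.5 in regular medium. It was thus above the floor on all arrays without reaching 149.3. Its log2 difference in co-culture against regular medium was -0.40. Probe sets of 1 gene scattered by 0.53 at such dim signals, so no direction is read from it. The other H2-DMb2 probe sets gave 6.8 and 6.5 in co-culture, 3.5 and 7.6 in conditioned medium, and 55.5 and 8.5 in regular medium. H2-Oa and H2-Ob, the chains of the H2-O inhibitor of H2-DM, were at or below the floor on every array.

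Genes of the proteins that bind the X and Y boxes were measured and, by the probe sets that stood for them, did not meet the size rule. All 7 listed promoter factors reached 149.3 on at least 1 array, none met the size rule, and their median log2 difference was 0.08 in co-culture and 0.07 in conditioned medium. Creb1, Nfyc and Nfyb gave log2 differences in co-culture against regular medium of 0.20, 0.39 and 0.11. The probe sets of Creb1 disagreed, and another of its 6 gave 51.9 in co-culture, 367.2 in conditioned medium and 326.5 in regular medium. Nfya had a log2 difference of -0.38 in co-culture against regular medium. Another bright Nfya probe set gave 338.3 in co-culture, 696.9 in conditioned medium and 735.6 in regular medium, past 2-fold lower in co-culture (-1.12). Rfx5, an RFX subunit chosen after its values were seen, gave 501.9 in co-culture, 503.4 in conditioned medium and 475.0 in regular medium. Rfxank, another RFX subunit, gave 114.3 in co-culture, 117.7 in conditioned medium and 206.4 in regular medium. Its log2 difference in co-culture was -0.85, and its other probe sets, all dim, gave -0.26 and 0.25.

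Of the genes that lead from interferon gamma to Ciita, 8 of 9 had a probe set and all 8 were measured. In co-culture against regular medium 2 were higher and none lower, beside 5.81% of 9393 bright genes higher and 2.76% lower. The median log2 difference of the 8 was 0.36, beside 0.07 over all measured genes, and 5 of the 8 had differences above 0. Irf1, a transcription factor that binds the inducible Ciita promoter, gave 3993 in co-culture, 1536 in conditioned medium and 1541 in regular medium, and was 2.59-fold higher in co-culture than in regular medium. Jak2, a kinase of the interferon gamma receptor, was 2.03-fold higher there, with 1231 in co-culture, 646.4 in conditioned medium and 605.9 in regular medium. Its other probe set gave a log2 difference of 0.26, and after quantile normalization Jak2 no longer met the rule. The probe sets of Jak1, which was not counted, disagreed. By 1 of them it gave 208.9 in co-culture, 438.8 in conditioned medium and 446.0 in regular medium. That was a log2 difference of -1.09 from regular medium, while the others gave 0.35 and 0.57. In conditioned medium none of the 8 met the rule and their median was 0.06.

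Genes of the MHC class I pathway were mostly higher in co-culture. All 11 with a probe set were measured on these arrays. In co-culture 7 were higher than in regular medium and none lower, beside 5.81% of 9393 bright genes higher and 2.76% lower. The median log2 difference of the 11 was 1.12 against 0.07 over all measured genes. The 7 were Tap1 and Tap2 of the peptide transporter, Tapbp, which links it to class I, the immunoproteasome subunits Psmb8 and Psmb9, the peptidase Erap1 and Nlrc5. Nlrc5, the class I relative of Ciita, gave 603.6 in co-culture, 235.7 in conditioned medium and 228.5 in regular medium, a 2.64-fold higher signal in co-culture than in regular medium. The other Tapbp probe set gave a log2 difference of 0.36, and the rest of the 7 had no second bright probe set that opposed them. The class I chain genes H2-K1, H2-D1 and B2m, and Psmb10, were not counted. They were 1.78-fold, 1.67-fold, 1.27-fold and 1.40-fold higher in co-culture than in regular medium. H2-D1 depended on the probe set, and others of its 9 gave 2.71-fold, 2.40-fold and 1.86-fold. In conditioned medium none of the 11 met the rule, and their median was 0.02.

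Class I and class II genes lie side by side on chromosome 17. RefSeq places 16 genes from H2-Oa to H2-Ea, of which 14 had a probe set annotated to them alone. This stretch was chosen after the values were seen. In co-culture 5 of the 14 were higher than in regular medium, beside 5.81% of the 9393 genes bright enough to be counted. At or below the floor in co-culture were 7 of the 14, beside 6346 of all 18193 named genes. The 5 were H2-DMa and, past the H2-DMb genes, the run of Psmb9, Tap1, Psmb8 and Tap2. Psmb9 was 3.14-fold higher, Tap1 6.22-fold, Psmb8 3.68-fold and Tap2 4.09-fold. The next genes in order, H2-Ob, H2-Ab1, H2-Aa, H2-Eb1, H2-Eb2 and H2-Ea, were all under the floor in co-culture. H2-Eb2 was above it on the other arrays, with 82.7 in conditioned medium and 53.3 in regular medium. Cd74 lies outside this stretch, on chromosome 18, with Ciita on chromosome 16 and Ctss on chromosome 3.

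**Figure D2:**
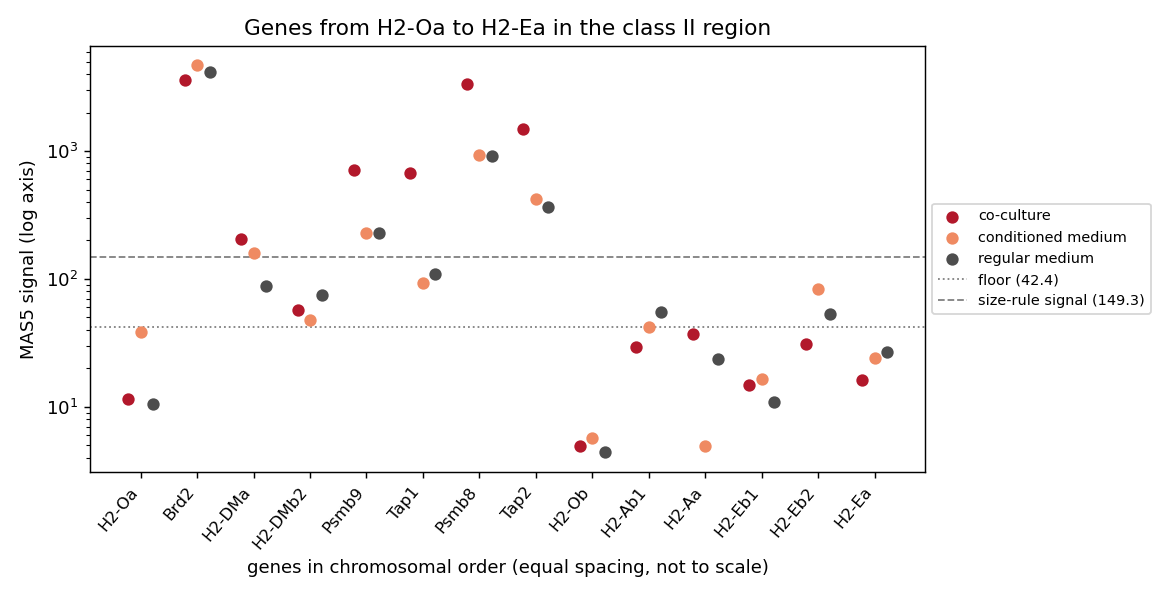
MAS5 signal (log axis) of the 14 genes with a probe set from H2-Oa to H2-Ea, in chromosomal order and not to scale, with 1 point for each array. Psmb9, Tap1, Psmb8 and Tap2 have their co-culture point well above the other points. The class II chain genes to their right lie around or below the floor of 42.4, apart from H2-Eb2 at 82.7 in conditioned medium.

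CD74 at the cell surface also binds the cytokine MIF with the help of other receptors. Of the 5 genes listed for this role, 3 were measured, and none met the size rule. Mif, Cd44 and Ddt had log2 differences of -0.26, -0.34 and -0.33 in co-culture against regular medium. Another bright Cd44 probe set gave 1694 in co-culture, 3781 in conditioned medium and 3488 in regular medium, a log2 difference of -1.04 from regular medium. The chemokine receptors Cxcr4 and Cxcr2, which pair with CD74, were below the floor on all arrays. Of 7 costimulatory and checkpoint ligand genes 3 were measured, and Cd274, which encodes PD-L1, was higher in co-culture, with 164.8 in co-culture, 56.4 in conditioned medium and 81.2 in regular medium. Its fold of 2.03 over regular medium was close to the limit, and it no longer met the rule with the higher floor, with a pseudocount of 16 in place of the floor or with the higher filter. Cd80 and Cd86, the ligands of CD28 chosen after their values were seen, were below the floor on all 3 arrays.

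**Figure D3:**
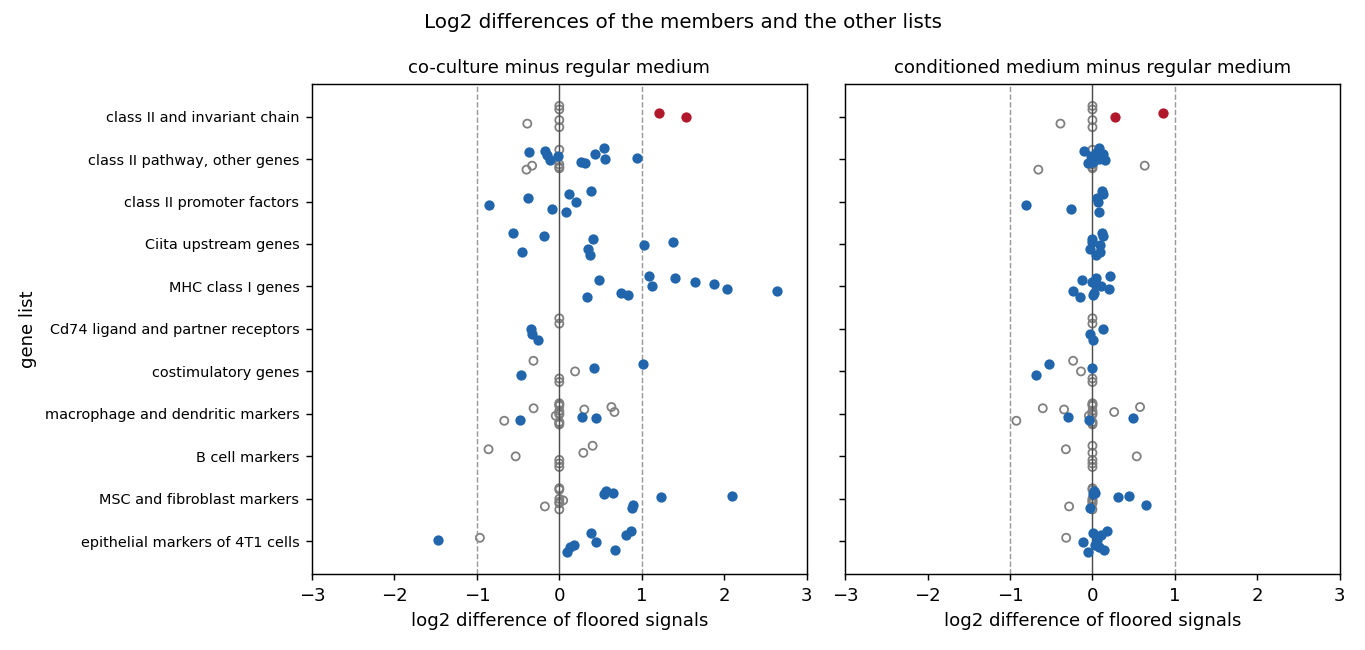
Log2 difference of floored signals for each gene of the members and of the 10 other lists, co-culture minus regular medium on the left and conditioned medium minus regular medium on the right. Each point is 1 gene, filled where it reached 149.3 on at least 1 array and open where it did not, and dashed lines mark 2-fold. Cd74 and H2-DMa are the filled points in the top row.

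Markers of cells that carry class II, or could come along with the isolated cells, were set beside Cd74 and H2-DMa. Of 18 macrophage and dendritic markers none met the size rule, and their summed signal was 1307 in co-culture, 1120 in conditioned medium and 1212 in regular medium. Cd14, Cd68 and Csf1r were the 3 measured, with co-culture signals of 348.4, 273.4 and 134.2 and regular-medium signals of 288.6, 200.9 and 186.9. The other Csf1r probe sets differed in the opposite direction at dim signals. They gave 108.7 and 91.9 in co-culture and 80.8 and 28.9 in regular medium. Of the 18 markers, 9 were at or below the floor on all arrays, among them Ptprc, Itgam, Tyrobp and Aif1 with 17.6, 2.7, 5.2 and 2.4 in co-culture. Others were above it without reaching 149.3. Spi1, a regulator of myeloid cells, gave 100.8 in co-culture, 76.1 in conditioned medium and 63.4 in regular medium, and Zbtb46, a dendritic cell factor, gave 106.8, 102.8 and 68.9 in the same order, with another Zbtb46 probe set at 48.6, 41.9 and 94.5. Adgre1, Cx3cr1 and Flt3 gave 50.6, 114.5 and 62.5 in co-culture and 80.4, 92.8 and 77.6 in regular medium. No B cell marker of the 7 with a probe set was measured, and their summed signal was 232.6 in co-culture, 219.7 in conditioned medium and 254.8 in regular medium. Fcmr, Pax5 and Ms4a1 had co-culture signals of 56.1, 51.9 and 37.0. Among 15 MSC and fibroblast markers Postn and Bgn were higher in co-culture and none was lower, and the summed signal was 11167 in co-culture, 7259 in conditioned medium and 6899 in regular medium. Postn was 2.35-fold higher and Bgn at least 4.28-fold higher, and all 7 measured markers had log2 differences above 0, with a median of 0.89. The brightest of them were already bright in regular medium, without MSCs. There Vcam1, Nt5e, Eng and Postn gave 2660.5, 2156.7, 937.8 and 765.6, so the summed signal is largely that of genes also bright in 4T1 cells alone. Col1a2 gave 188.2 in co-culture, 100.1 in conditioned medium and 101.8 in regular medium, and Pdgfra gave 187.5, 158.9 and 101.3 in the same order. Eng, Nt5e and Vcam1 had differences of 0.65, 0.56 and 0.54, and other probe sets of Pdgfra, Nt5e and Vcam1 above the floor differed in the opposite direction. Of the 15 markers, 6 were at or below the floor on all arrays, among them Col1a1, Dcn and Thy1. The other Bgn probe sets gave 56.8 and 44.9 in co-culture, and Bgn no longer met the rule with the mean over probe sets or with a higher floor or filter. The part of macrophage, dendritic or MSC RNA in the Cd74 and H2-DMa signals was not tested. Epcam, Cdh1, Krt8 and Krt18, which mark the epithelial 4T1 cells, had lowest signals over the arrays of 5009, 7352, 15049 and 18723. Of the 10 epithelial markers only Krt14 met the rule, 2.77-fold lower in co-culture.

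Genes with the pattern nearest to that of the 2 counted members were found by the distance between their pairs of log2 differences from regular medium, over 3 arrays and 9180 candidate genes above the floor on all arrays. For Cd74 these were Hs1bp3, Fam13b, Ifi47, Atf6 and Dennd2d, at distances of 0.0028 to 0.071. Ifi47, an interferon-inducible GTPase, gave 895.0 in co-culture, 363.7 in conditioned medium and 300.5 in regular medium. For H2-DMa they were Acpp, Chst11, Rarg, Rab11fip3 and Tmem71, at 0.039 to 0.14. Rarg, a retinoic acid receptor, gave 909.0 in co-culture, 640.1 in conditioned medium and 367.6 in regular medium. With 3 arrays a likeness of this kind rests on only a pair of numbers per gene.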

How the data were processed

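Total RNA of 4T1 cells was biotin-labelled for 3 Affymetrix Mouse Genome 430 2.0 arrays, as the labels' protocols state, and groups were taken from the labels. The deposited intensity values are MAS5 signals, per the submitters' processing notes. Neither the MAS5 version nor its scaling target is stated there. The 2%-trimmed means, 497.7 to 498.0, were nearly equal, so nothing was rescaled. Of 45037 probe sets, 34945 had 1 gene symbol, 932 several and 9160 none, and 34741 symbols were updated through the gene ID. Floor, fold rule and probe set choice are given in the report. With 1 array per group no test was run. Members, lists and rules were chosen with earlier results of these data known. Named genes were all members and, of each list, those counted in co-culture, or else the 3 with the highest co-culture signal. Defining markers of other cell types and of 4T1 cells, and Cxcr4, Cxcr2, H2-Oa and H2-Ob, were named after their values were seen. The fold rule was tested on simulated data, with changes planted only in genes already bright in regular medium. No change near 2-fold was planted, so the simulation does not cover calls near the limit or from dim signals. A total of 11 alternatives covered scaling, floor, filter, fold and probe set choice. Promoter sequences came from RefSeq, where 4 of the 7 members matched. Python 3.11.15, NumPy 2.4.6, pandas 2.3.3, SciPy 1.17.1 and Matplotlib 3.10.9 were used.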

Additional observations from a re-analysis of the deposited data

How the results depend on the processing

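Over the 11 alternatives the log2 difference of Cd74 lay between 1.48 and 1.68 in co-culture against regular medium, between 0.26 and 0.43 in conditioned against regular medium and between 1.22 and 1.27 in co-culture against conditioned medium. That of H2-DMa lay between 0.46 and 1.35, between 0.10 and 1.01 and between 0.18 and 0.35 in the same order. The members counted in co-culture against regular medium numbered 2, and 1, Cd74, with the floor at the pooled 60th percentile, with the filter at the pooled 80th or with the mean over probe sets. They numbered 1, H2-DMa, without probe sets named _x_at, _s_at or _a_at, which leaves no probe set for Cd74, H2-Aa and H2-Ab1, and 0 with a 3-fold rule. In conditioned against regular medium 1 member, H2-DMa, was counted with arrays scaled to a common median or with a 1.5-fold rule. In co-culture against conditioned medium 0 were counted with a 3-fold rule and without those probe sets. Of the genes in the other lists 13 were counted in co-culture against regular medium, 23 with a 1.5-fold rule, 5 with a 3-fold rule and 8 with the mean over probe sets. No member with a counted difference changed sign.

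Median scaling moved the median log2 difference of all measured genes up by 0.14 in co-culture and 0.16 in conditioned medium against regular medium. It then gave 801 higher and 167 lower genes in co-culture, 82.7% higher in place of 67.8%, and 25 higher and 18 lower in conditioned medium, 58.1% in place of 26.3%. Quantile normalization gave 36.6% in conditioned medium. All genes counted in co-culture against regular medium numbered 805, and 2512, 222 and 435 with a 1.5-fold rule, a 3-fold rule and a filter at the 80th percentile. In co-culture against conditioned medium they numbered 788, and 2509, 233 and 423 in the same order. In conditioned against regular medium they numbered 38, and 203, 17 and 2 in the same order, 3 with the floor at the 60th percentile, 259 without a filter and 22 with the mean over probe sets. The causes were not tested. No paired analysis was possible because each group had 1 array. Signals under the floor of 42.4 limit what can be said of the class II chains, Ciita and Ctss.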

Other observations

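A pair of probe sets is annotated to both H2-DMb1 and H2-DMb2, the genes of the beta chain partners of H2-DMa, and was assigned to neither. The first gave 40.5 in co-culture, 14.0 in conditioned medium and 21.2 in regular medium. The second gave 31.7 in co-culture, 13.8 in conditioned medium and 14.2 in regular medium. All of these signals were below the floor of 42.4, where values have no order.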
